A study of Rattus norvegicus with 18 samples.

Results

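In whole hippocampus, 42 genes that carry only a placeholder symbol in the deposited table separated 2 selectively bred rat lines and are described here. A gene belongs to the set if its symbol starts with LOC or RGD, if the log2 values of the 6 bred High Responder (bHR) rats and the 6 bred Low Responder (bLR) rats do not overlap, and if the line means lie at least 0.5 apart on the log2 scale; LOC102555248 was left out. The rule found 42 of the 5804 placeholder genes, which are part of 20909 genes in all. Since the bHR and bLR values chose the members, the differences between these lines are given below as a description without a test. The share of placeholder genes that meet the criteria was 0.741% with LOC102555248 counted, against 0.536% of all genes and 0.457% of genes with other symbols.

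All rats were adult males of the 37th generation of selective breeding or a cross from it, and whole hippocampus of each rat gave 1 polyA library. The bHR line was bred for high and the bLR line for low locomotor activity in an unfamiliar environment. The 6 bred Intermediate Responder (bIR) rats came from crossing bHR with bLR rats. Rats of the selected lines were killed at postnatal day 160 to 167 and those of the cross at postnatal day 126 to 134, so cross and age cannot be told apart in bIR. No litter or lane of single rats was read from the labels, so rats of a line may be related, and p-values measure the spread between these rats alone.

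A LOC symbol is a provisional name that joins the letters to a gene number, and an RGD symbol one that joins them to a number of the Rat Genome Database. Such names go to predicted protein-coding genes, long non-coding RNAs, pseudogenes and copies of known genes that have not been given a name of their own. In selectively bred lines, alleles of some loci become frequent in 1 line and rare in the other, and an offspring of a cross receives 1 allele from each parent line. A transcript whose level is set by such an allele is then often found between the parental levels in the cross.

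Libraries held 31.1 to 66.6 M reads, and the average library was smaller in bHR (39.2 M) than in bIR (45.5 M) or bLR (48.7 M). Levels are given in FPM (fragments per M fragments counted), scaled per library and not per transcript length, so they are compared between rats and not between genes. Transthyretin (Ttr), which choroid plexus epithelium makes in large amounts, exceeded 11 on the log2 scale in HR_38, IR_213, IR_248 and IR_261. All 15 choroid plexus markers were detected in every rat, with a summed level of 327 to 5492 FPM in bHR, 397 to 17291 in the cross and 357 to 2578 in bLR. The 10 meningeal fibroblast markers summed to 99.9 to 412 FPM in bHR, 118 to 771 in the cross and 92.2 to 202 in bLR. The 12 hippocampal neuron markers, among them Prox1 of granule cells, were also detected in every rat (1983 to 3084, 2437 to 3052 and 2593 to 3152 FPM in the same order), and 2 of the 12 had a higher mean in bHR (median log2 difference -0.21). The mean was higher in bHR for 9 of the 15 choroid plexus and 6 of the 10 meningeal markers (medians 0.07 and 0.03). No marker of these lists was called between bHR and bLR. In whole tissue, fewer cells of a type and less RNA per cell cannot be told apart.

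In RefSeq, 7 of the members no longer carry a placeholder symbol, and this could not be checked for 30. A new symbol does not by itself give a function, and most of these names mark copies or pseudogenes. Of the 42 members, 12 were matched by gene number or symbol to RefSeq's annotation of the GRCr8 assembly, and 7 of these now carry a gene name. LOC691921 is now Uqcc6, a small protein of the inner mitochondrial membrane needed to assemble respiratory complex III. LOC102551257 is now Znf431l5, a zinc finger gene, LOC302192 is Spetex2l1, LOC501467 is Dlg5l14, and LOC100359563 is Rps20l4, a copy of a ribosomal protein gene. LOC100361892 and LOC691173 are now listed as the pseudogenes Cbll1-ps1 and Ckap2-ps3. RefSeq lists 6 of the 12 as protein-coding, 3 as long non-coding RNAs and 3 as pseudogenes. The other 30 members were not matched.

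The members divided evenly, 21 higher and 21 lower in bHR. Of placeholder genes, 0.362% met the criteria upward and 0.379% downward, the latter with LOC102555248 counted. Line differences ran from 0.55 to 4.22 on the log2 scale in size (median 1.66), and 30 members differed by at least 2-fold. These sizes went with level: the 13 members with a mean log2 value of at least 0 had a median of 0.91, with 6 at 2-fold or more, and the 29 below it a median of 2.02, with 24 at 2-fold or more. Most members rested on few reads. A mean log2 value of at least 0, which is 1 FPM, was reached by 13 members, and 12 had 10 or more reads in all 18 libraries. In 15 members no rat of the lower line reached 10 reads, and for 5 members fewer than 4 libraries reached 10 reads, which is below the filter that the labels describe. Among placeholder genes with a mean log2 of at least 0 the criteria were met by 0.523% with LOC102555248 counted, against 0.393% of other genes at that level. The plot of level against line difference shows the members among all placeholder genes.

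**Figure D1:**
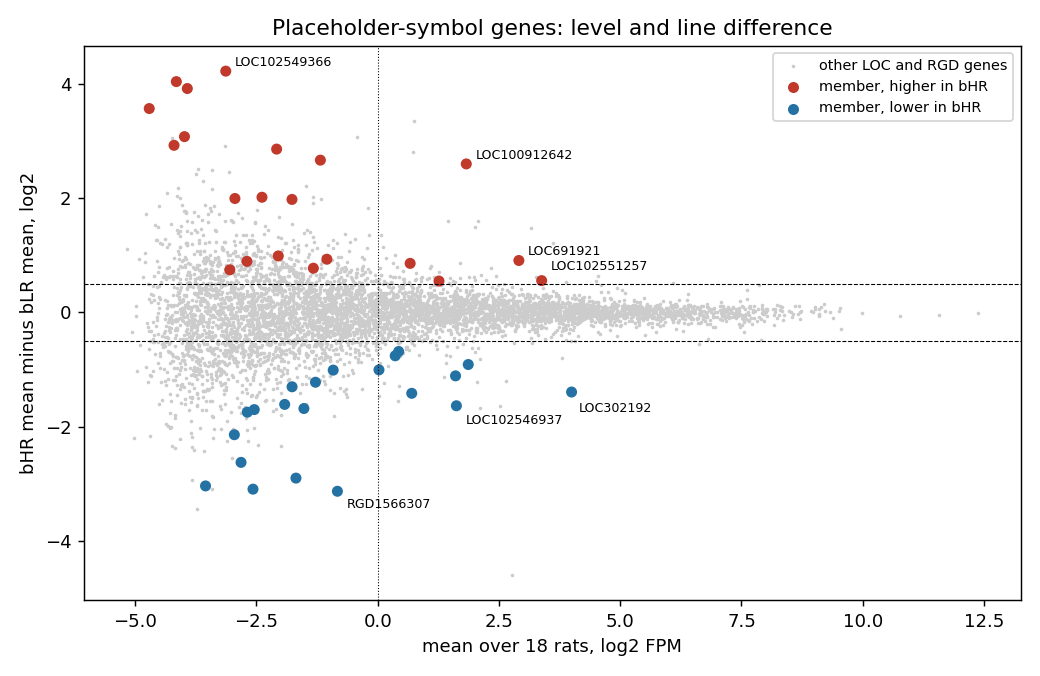
Each point is 1 placeholder gene, with its mean log2 FPM over 18 rats on the horizontal axis and the bHR mean minus the bLR mean (log2) on the vertical axis; the 42 members are red (higher in bHR) or blue (lower in bHR), dashed lines mark 0.5 and -0.5, and the dotted line marks a mean of 0. Differences above 3 in size lie left of the dotted line among members, where the values rest on few reads.

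Among members with at least 1 FPM, the largest line difference was that of LOC100912642, a protein-coding gene that RefSeq places on chromosome 5 of GRCr8 beside Hook1 and a group of Cyp2j genes. The 300 bases around its annotated start (chr5:116046113-116046412 of GRCr8, minus strand) are shown because its rats fell into separate levels. Capitals mark TATAAA and CCAAT on either strand, and the window holds no CG dinucleotide.
LOC100912642: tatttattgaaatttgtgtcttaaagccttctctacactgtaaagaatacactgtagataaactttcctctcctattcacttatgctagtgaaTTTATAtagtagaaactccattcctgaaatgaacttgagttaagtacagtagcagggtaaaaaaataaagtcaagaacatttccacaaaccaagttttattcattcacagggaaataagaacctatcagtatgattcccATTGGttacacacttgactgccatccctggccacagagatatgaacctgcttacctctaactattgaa
In bHR its lowest, median and highest levels were 6.40, 7.74 and 10.1 FPM, in bIR 2.69, 4.08 and 8.13, and in bLR 0.109, 3.10 and 4.28. The log2 difference between bHR and bLR was 2.60. Within bLR, LR_8 and LR_32 stood at 0.109 and 0.259 FPM, from 6 and 13 reads, while the other 4 lay between 2.96 and 4.28 FPM. Of the bIR rats, IR_213 and IR_261 (7.64 and 8.13 FPM) lay inside the bHR range and the other 4 between 2.69 and 4.35 FPM. Those 2 bIR libraries also had Ttr above 11, as did IR_248, which stood at 3.82 FPM with the lower bIR rats, and the part of this in the result was not tested; HR_38, the bHR library with Ttr above 11, stood at 8.04 FPM, close to the bHR median. Without LR_8 the line difference was 1.91.

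The mitochondrial gene Uqcc6 (LOC691921) was higher in bHR with little spread. Its start window (chr7:22992323-22992622 of GRCr8, plus strand) is shown for contrast with that of LOC100912642, since it holds 22 CG dinucleotides, more than 79.0% of all start windows. CCAAT, here as its reverse complement, is in capitals.
LOC691921: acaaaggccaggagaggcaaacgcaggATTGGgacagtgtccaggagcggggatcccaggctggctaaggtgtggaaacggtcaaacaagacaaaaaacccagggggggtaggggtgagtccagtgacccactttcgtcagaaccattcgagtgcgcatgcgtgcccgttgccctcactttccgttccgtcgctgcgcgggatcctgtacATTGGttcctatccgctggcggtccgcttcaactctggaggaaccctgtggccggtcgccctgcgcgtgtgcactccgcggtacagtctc
The lowest, median and highest levels were 9.56, 10.4 and 11.5 FPM in bHR, 5.62, 7.21 and 9.54 in the cross and 3.91, 6.11 and 7.04 in bLR. The log2 difference was 0.91, from 10.6 ± 0.791 FPM in bHR against 5.78 ± 1.38 in bLR (SD, n = 6). No bIR rat reached the bHR range, the highest being IR_248 at 9.54 FPM, and 4 bIR rats lay in the gap between the lines.

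Spetex2l1 (LOC302192), a copy gene of the Spetex-2 family, was lower in bHR. Its start window (chr9:6408845-6409144 of GRCr8, plus strand) is shown because its bIR rats lay at levels far apart. The window holds neither TATAAA nor CCAAT nor GGGCGG on either strand, and so has no capitals.
LOC302192: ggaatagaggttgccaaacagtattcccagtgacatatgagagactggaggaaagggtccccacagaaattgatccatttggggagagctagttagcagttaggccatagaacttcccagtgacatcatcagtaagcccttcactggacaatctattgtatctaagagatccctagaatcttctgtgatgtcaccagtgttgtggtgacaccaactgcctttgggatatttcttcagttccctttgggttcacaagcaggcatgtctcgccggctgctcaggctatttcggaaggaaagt
The bHR rats had 7.23, 9.96 and 10.7 FPM as lowest, median and highest levels, and the bLR rats 12.9, 28.1 and 41.6. In bIR, IR_158 stood at 6.33 and IR_293 at 8.75 FPM, while the other 4 rats lay between 24.96 and 31.0 FPM. Thus 4 bIR rats were within the bLR range, IR_293 was within the bHR range and IR_158 was below it. Ttr stood at 6.56 and 6.24 on the log2 scale in these low rats and at 7.58 to 13.71 in the other 4, and its part in the result was not tested. Within bLR, LR_20 and LR_32 (12.9 and 14.7 FPM) stood below the other 4 rats (26.7 to 41.6 FPM). Here Ttr was not lower in the low rats, at 10.67 in LR_20 and 6.84 in LR_32, against 6.24 to 9.86 in the other 4. The log2 difference between the lines was -1.39.

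The zinc finger gene Znf431l5 (LOC102551257) was 12.9 ± 1.37 FPM in bHR, 10.1 ± 1.36 in the cross and 8.81 ± 1.06 in bLR (SD, n = 6; log2 difference 0.56). Its lowest, median and highest levels were 11.1, 13.1 and 14.8 FPM in bHR against 6.996, 8.83 and 9.99 in bLR. In bIR they were 8.17, 9.65 and 11.9 FPM, and 4 bIR rats lay in the bLR range and 2 in the bHR range. The difference of this gene is close to the threshold of the rule.

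LOC102551894 was higher in bHR, at 2.12, 2.23 and 3.05 FPM (lowest, median, highest) against 0.825, 1.33 and 2.00 in bLR. The bIR rats had 1.01, 1.12 and 2.24 FPM, and 5 of the 6 lay in the bLR range, with only IR_261 in the bHR range. LOC100910520, the member nearest the threshold, had 2.32, 2.97 and 3.45 FPM in bHR, 1.91, 2.36 and 3.37 in the cross and 1.46, 2.05 and 2.18 in bLR. Its bIR rats spread over both lines, 3 in the bHR range, 2 in the bLR range and 1 between. The log2 differences of these genes were 0.86 and 0.55.

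Just under the threshold of 0.5, RGD1564801 (log2 difference 0.47) and LOC102547746 (0.41) also showed no overlap between the lines but do not belong to the set.

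Among the genes lower in bHR, LOC102546937 had the largest difference of those with at least 1 FPM (log2 difference -1.63). Its levels were 1.06, 1.49 and 3.07 FPM in bHR, 2.75, 3.88 and 4.05 in the cross and 3.81, 4.49 and 8.60 in bLR. The bHR value of 3.07 FPM came from HR_38, the library rich in Ttr, and the other 5 bHR rats stood at 1.06 to 1.80 FPM. Apart from IR_261 (2.75 FPM), the bIR rats lay within 3.56 to 4.05 FPM.

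LOC102552795 stood at 0.665, 1.01 and 1.41 FPM in bHR, 1.22, 1.51 and 2.89 in the cross and 2.19, 2.49 and 3.85 in bLR (log2 difference -1.41). In bIR, 3 rats fell in the gap between the lines, and IR_248 alone lay in the bLR range. LOC690414, now listed by RefSeq as the long non-coding RNA RGD1596092, had 0.803, 2.02 and 3.52 FPM in bHR against 3.73, 4.22 and 6.63 in bLR (log2 difference -1.11). Its bIR rats covered most of both ranges, from 1.42 FPM in IR_149 to 5.66 in IR_261, with 3 rats in each range.

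LOC102549342, which RefSeq lists as a pseudogene, had 0.480, 0.797 and 1.31 FPM in bHR against 1.35, 1.62 and 2.02 in bLR (log2 difference -1.004). All 6 bIR rats, from 0.468 to 1.17 FPM, were below the bLR range, and 5 of them lay within the bHR range. LOC102553895 showed the opposite placing, with 1.601, 2.66 and 3.34 FPM in bHR, 3.45, 4.09 and 4.59 in the cross and 3.98, 4.64 and 6.54 in bLR. None of its bIR rats was in the bHR range, and the line difference was -0.91 on the log2 scale.

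LOC102552262 and RGD1560034 showed smaller differences, -0.68 and -0.76. For LOC102552262 the lowest, median and highest levels were 0.672, 1.11 and 1.31 FPM in bHR, 1.11, 1.27 and 1.78 in the cross and 1.51, 1.67 and 2.04 in bLR. For RGD1560034 they were 0.633, 1.01 and 1.34 FPM in bHR, 0.993, 1.27 and 1.62 in the cross and 1.35, 1.64 and 2.11 in bLR. The highest bHR and the lowest bLR rat of RGD1560034 were almost level, so this member meets the rule by a very small margin.

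**Figure D2:**
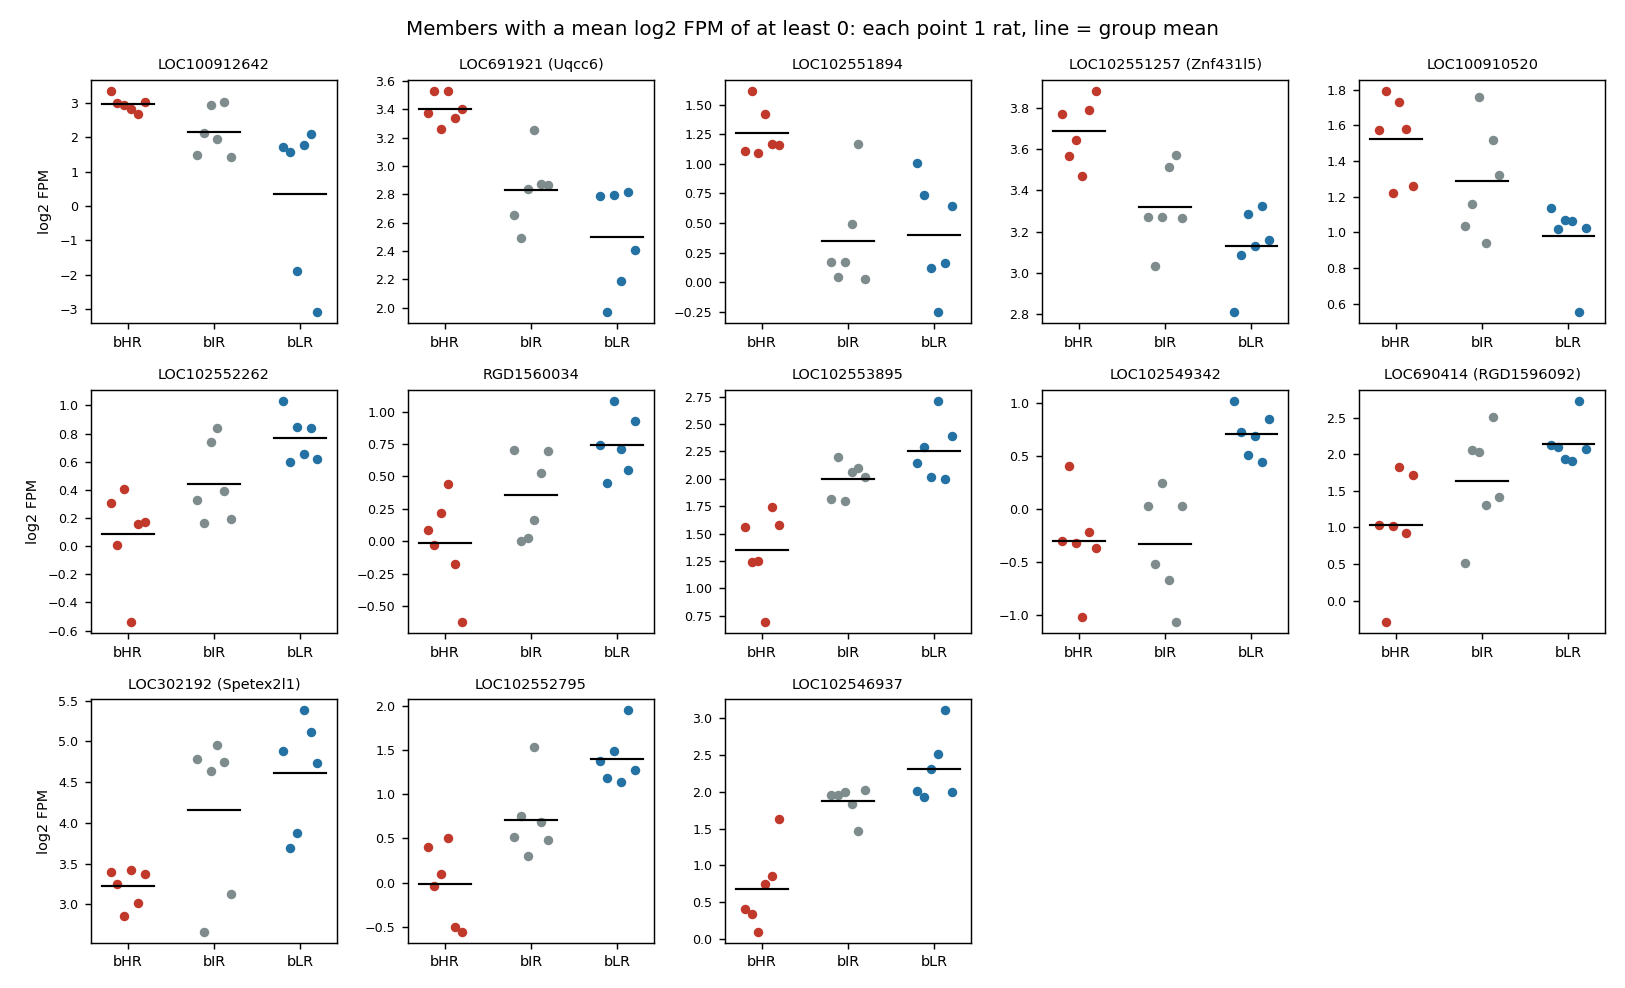
Each panel shows 1 of the 13 members with a mean of at least 1 FPM, with log2 FPM on the vertical axis, 1 point per rat and a black line at the group mean. The bHR and bLR points do not overlap in any panel, as the rule requires, while the bIR points of LOC302192 lie in separate clusters at 6.33 to 8.75 FPM and at 24.96 to 31.0 FPM.

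The 29 members with a mean below 1 FPM are given in reads per rat, since a single read moves their values. Of these, 16 were higher in bHR. LOC102549366 had the largest fitted difference of all members (4.22), from 7 to 29 reads in bHR rats, 2 to 13 in the cross and 0 to 5 in bLR. LOC102551994 had 5 to 18 reads in bHR, 0 to 4 in the cross and 0 to 1 in bLR. Summed over rats, these were 60 reads in bHR and 2 in bLR.

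LOC687345 had 3 to 22 reads in bHR, 0 to 6 in the cross and 0 to 1 in bLR, with 70 reads against 3 summed over the lines. LOC102549299, a long non-coding RNA, had 2 to 8 reads in each bHR rat, 0 to 6 in the cross and none in the 6 bLR rats. With a floor of 3 reads over the bLR group, the 29 reads summed over bHR gave an 11.8-fold difference. This ratio leaves out the counting error of the bHR reads and the spread between rats. The fitted log2 difference of LOC102549299, 3.57, depends on the offset. LOC102551994, LOC687345 and LOC102549299 kept a gap of more than 1.6 on the log2 scale between the lines. The edges of these gaps rest on few reads and so also depend on the offset. In the same order, the lowest bHR and highest bLR values came from 7 and 1, 3 and 1, and 2 and 0 reads.

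LOC102547970 (5 to 13 reads in bHR, 0 to 5 in bLR) and the pseudogene Cbll1-ps1 (LOC100361892; 2 to 14 reads against 0 to 2) had fitted differences of 3.08 and 2.92. In both, the highest bLR rat came close to the lowest bHR rat. LOC102555008 was better covered, with 7 to 41 reads in bHR, 6 to 23 in the cross and 0 to 8 in bLR (log2 difference 2.86), and 4 of its 6 bIR rats lay in the bHR range. LOC102547557 had 24 to 183 reads in bHR against 4 to 18 in bLR (log2 difference 2.66). Its bIR rats formed separate levels, with 43 and 47 reads in IR_248 and IR_293 and 2 to 14 in the other 4.

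LOC102548969, LOC100912606 and LOC102550188 followed, with log2 differences of 2.02, 1.99 and 1.98. LOC102548969 was even among bHR rats, at 12 to 20 reads, against 1 to 11 in bLR. LOC102550188 had 9 to 37 reads in bHR, 5 to 41 in the cross and 4 to 12 in bLR, so that 4 bIR rats fell in the bHR range. For LOC100912606 the ranges were 6 to 20 reads in bHR, 0 to 17 in the cross and 0 to 11 in bLR.

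Rps20l4 (LOC100359563), the ribosomal protein copy, had 8 to 17 reads in bHR, 5 to 17 in the cross and 6 to 11 in bLR (log2 difference 0.99). The ranges of reads overlap here and the scaled values do not; bLR libraries held more reads on average. Reads overlapped in the same way for further members. Below 1 FPM these included LOC102550078 (19 to 36 against 7 to 30 reads, log2 difference 0.93), LOC102552080 (5 to 11 against 3 to 6, 0.89), LOC102553220 (15 to 32 against 6 to 22, 0.77) and LOC102548864 (3 to 9 against 2 to 5, 0.75). With at least 1 FPM they included Uqcc6 (333 to 531 against 160 to 349 reads), Znf431l5 (346 to 694 against 307 to 502), LOC102551894 (70 to 118 against 29 to 98) and LOC100910520 (75 to 133 against 67 to 119). LOC102553220 stood out in bIR, with 47 and 72 reads in IR_248 and IR_149, above every bHR and bLR rat, and 6 to 16 in the other bIR rats.

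In turn, 13 members below 1 FPM were lower in bHR. RGD1566307 showed the widest separation among them, with 2 to 19 reads in bHR, 16 to 43 in the cross and 48 to 148 in bLR. Its levels were 0.202 ± 0.134 FPM in bHR, 0.655 ± 0.292 in the cross and 1.65 ± 0.527 in bLR (SD, n = 6; log2 difference -3.13), with 4 bIR rats in the gap between the lines and none in the bLR range. LOC690467 had 1 to 13 reads in bHR, 5 to 32 in the cross and 26 to 58 in bLR (log2 difference -2.90).

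LOC102546641 (0 to 7 reads in bHR, 7 to 32 in bLR), LOC102555418 (0 to 4 against 6 to 26), LOC102554299 (0 to 8 against 8 to 31) and LOC102548796 (0 to 6 against 10 to 26) had fitted differences of -3.09, -3.03, -2.62 and -2.14. Each had at least 1 bHR rat without a read. LOC102555418 was also at 0 reads in IR_213 and IR_248 and at 17 in IR_149, so its bIR rats spanned both lines. LOC102554267 (1 to 5 reads in bHR, 8 to 24 in bLR) and LOC102551760 (3 to 14 against 19 to 42) differed by -1.74 and -1.68, with 4 bIR rats each in the bLR range.

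LOC102552563, a long non-coding RNA, had 0 to 11 reads in bHR against 12 to 29 in bLR (log2 difference -1.70). Its bIR rats ran from 0 reads in IR_261 to 16 in IR_213. Without the 4 libraries rich in Ttr its difference was -1.13, and HR_38, one of these, had 0 reads. Dlg5l14 (LOC501467) had 3 to 7 reads in bHR, 6 to 22 in the cross and 11 to 34 in bLR (log2 difference -1.61), and 5 bIR rats lay in the bLR range.

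LOC102547078 was even in bLR, at 18 to 22 reads, against 3 to 11 in bHR (log2 difference -1.30), and no bIR rat lay in the bHR range. The pseudogene Ckap2-ps3 (LOC691173) was placed the other way. All 6 of its bIR rats, with 12 to 26 reads, lay in the bHR range of 5 to 19 reads once scaled, against 23 to 53 reads in bLR (log2 difference -1.22). LOC367516 had 8 to 21 reads in bHR, 16 to 35 in the cross and 26 to 48 in bLR (log2 difference -1.01), with 4 bIR rats in the bHR range.

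The bIR values were not used to choose the members and are placed here against the line means. Placing the bLR mean of log2 values at 0 and the bHR mean at 1, the median position of the bIR mean over the 42 members was 0.467, with quartiles at 0.331 and 0.588. In 38 members the mean of the cross fell between those of the lines. It lay beyond the bHR mean for LOC102548864 (1.35), LOC102549342 (1.02) and LOC102552080 (1.02), and beyond the bLR mean for LOC102551894 (-0.06). On linear FPM the median position was 0.497. These positions are a description, since the rule selected the line means that set the scale. Rats with no relation to the lines would also tend to fall between line means chosen to lie apart. How the levels are inherited was not tested.

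Single bIR rats were placed by the ranges of the lines, a different measure from the line means. Of the 252 bIR values, 91 (36.1%) lay within the bHR range of their gene, 101 (40.1%) within the bLR range and 42 (16.7%) in the gap, and 12 and 6 lay beyond the bHR and bLR ranges. In 30 of the 42 members at least 1 bIR rat lay in each range. No member had all 6 bIR rats in the gap. In 13 members at least 1 library had 0 reads, and there the log2 value is set by library size alone. Rats with equal counts of 0 can therefore fall into different classes. IR_158, with 0 reads of LOC687345, counted as beyond the bLR range, although LR_8, LR_20 and LR_44 also had 0 reads. The 69 genes with other symbols that meet the same criteria had a median position of 0.495, with 40.6% of 414 bIR values in the bHR range, 33.8% in the bLR range and 18.1% in the gap, and 50 of them had bIR rats in both ranges. These genes had higher levels (median of their mean log2 values 2.17 against -1.73) and a median difference of 0.93 in size, against 1.66 over all 42 members and 0.91 over the 13 members with a mean log2 of at least 0. The 2 sets were not tested against each other.

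No bIR rat stood on 1 side for all members. The median position per rat ran from 0.398 in IR_158 to 0.644 in IR_248, and the number of members in the bHR range from 11 in IR_158 to 19 in IR_293. The 3 bIR rats with Ttr above 11 had 14, 16 and 16 members in the bHR range, and the other 3 had 11, 15 and 19. Without the 4 libraries rich in Ttr the median position was 0.437. Of these libraries HR_38 alone enters the line differences, which moved by at most 0.57 on the log2 scale without it.

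**Figure D3:**
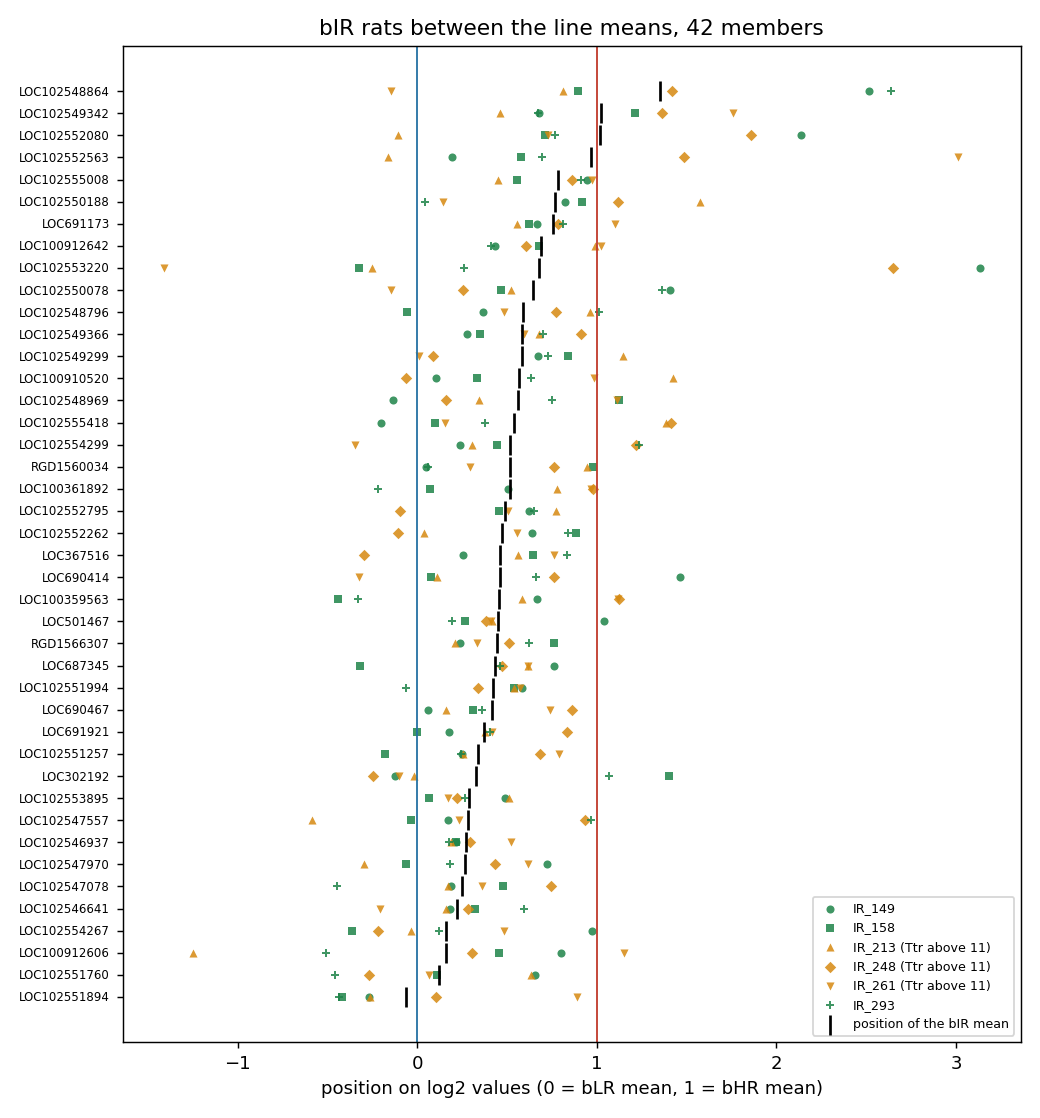
Each row is 1 of the 42 members and each symbol 1 bIR rat, placed by its log2 value between the bLR mean (0, blue line) and the bHR mean (1, red line); black bars mark the position of the bIR mean, and orange symbols are the rats with Ttr above 11. The bars of 38 members lie between the lines, from LOC102551894 at -0.06 to LOC102548864 at 1.35, and the rats of most members spread to both sides.

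Whether bIR departs from the midpoint of the lines was tested over all genes. The rule selected on the difference of the line means and not on their sum. However, it also used the spread within the lines, which enters the standard error. In addition, a line near 0 reads has a mean set largely by the offset. The values given for members are therefore a description and not a test free of the selection. In limma over all genes, 1 of 20909 genes (0.00478%) differed from the midpoint at an adjusted p under 0.05, and 0 of the 42 members did (smallest Benjamini-Hochberg adjusted p = 0.882). At an unadjusted p under 0.05 there were 2 members, or 4.76%, against 5.63% of all genes. They were LOC102551894, whose bIR mean was 0.48 below the midpoint on the log2 scale (SE 0.20, limma unadjusted p = 0.0217, adjusted p = 0.882), and LOC102549342, 0.53 below it (SE 0.21, limma unadjusted p = 0.0227, adjusted p = 0.882). The bIR mean was above the midpoint in 26 members and below it in 16, with a median of 0.04 against 0.01 over all genes. The standard error of this contrast was 0.37 in the median member and 0.12 in the median gene, so departures from the midpoint were measured less precisely in members than in most genes.

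Within lines, no member was called for a relation with anxiety-like behaviour. A limma model with the line means and a common slope on the share of a plus-maze session passed on its open arms, in percent, called 0 of the 42 members (smallest adjusted p = 0.999), and 0 genes (0%) in all. At an unadjusted p under 0.05 it had 0 members, against 4.34% of all genes. The rule used the spread within bHR and bLR, which enters this fit too. The values for members are therefore a description and not a test free of the selection. The slope was positive in 19 members and 50.5% of all genes. For the cross, the maze test came at postnatal day 65 to 75, long before tissue was taken, and for the selected lines at the age of 160 to 167 days.

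Neighbouring genes were read for the 12 members that could be placed in gene order on GRCr8, which is used for order and names only. Of the 48 genes that were the 2 nearest measured ones on each side, 1 did not overlap between bHR and bLR (2.08%, against 0.909% of all genes, of which 0.407% were higher and 0.502% lower in bHR). It was Ube3d, a ubiquitin ligase gene and the second measured gene after Rps20l4. Ube3d stood at 3.72 ± 0.643 FPM in bHR, 2.74 ± 1.00 in the cross and 1.99 ± 0.436 in bLR (SD, n = 6; log2 difference 0.91, SE 0.22, limma adjusted p = 0.0805), in the same direction as Rps20l4. Its bIR rats were at 3.56 to 3.68 FPM in IR_149, IR_158 and IR_213 and at 1.43 to 2.48 in the other 3.

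None of the 48 neighbours was called by limma between bHR and bLR at an adjusted p under 0.05, against 0.445% of all genes. At an unadjusted p under 0.05 there were 5 of the 48, and 14 of 120 with 5 neighbours on each side. The share of all genes at that level was not counted, so these counts cannot be read as usual or raised. The median difference of the 48 in size was 0.11, as over all genes (0.11), and 27 of the 48 had the same sign as their member. With 5 neighbours on each side, 3 of 120 did not overlap. The others were Pgm3, an enzyme of amino sugar metabolism near Rps20l4 (log2 difference 0.18, limma adjusted p = 0.274), and Dkk3, a secreted protein of the Dickkopf family near Ckap2-ps3. Dkk3 was 316 ± 36.1 FPM in bHR against 412 ± 40.1 in bLR (SD, n = 6; log2 difference -0.38, SE 0.08, limma adjusted p = 0.0248), the only one of the 120 that was called.

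The Cyp2j genes beside LOC100912642 code for cytochrome P450 enzymes of fatty acid oxidation. Cyp2j10, the nearest of them, was level between the lines, with 10.8 ± 1.77 FPM in bHR against 10.7 ± 2.03 in bLR (SD, n = 6), a log2 difference of 0.01. Cyp2j4 was 2.73 ± 0.336 FPM in bHR against 4.14 ± 1.53 in bLR (log2 difference -0.53, limma adjusted p = 0.319), opposite in sign to LOC100912642 and not past the threshold. Past the Cyp2j genes, RGD1560146 stood at 1.88 ± 0.655 FPM in bHR against 0.934 ± 0.303 in bLR (SD, n = 6). Its log2 difference of 1.00 had the sign of LOC100912642, but the lines overlapped and it was not called (limma adjusted p = 0.266). Hook1, on the other side, had a log2 difference of 0.25 (limma adjusted p = 0.189).

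**Figure D4:**
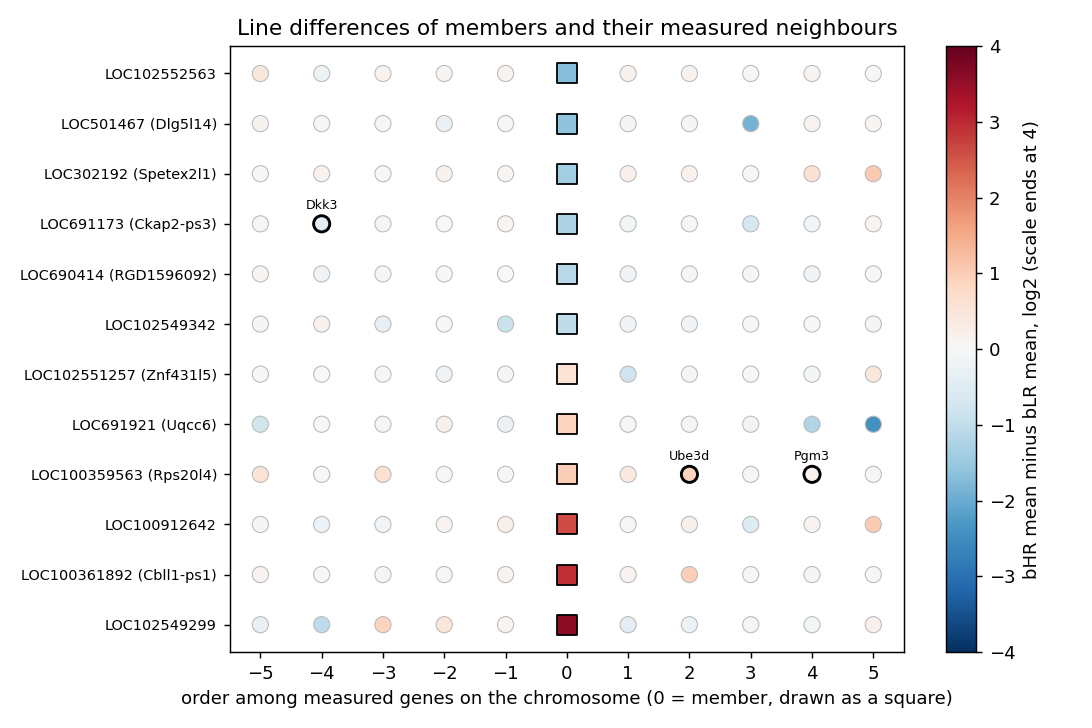
Each row is 1 of the 12 placed members (square at 0) with its 5 nearest measured genes on each side in gene order, coloured by the bHR mean minus the bLR mean on the log2 scale. Thick outlines mark the neighbours without overlap between the lines, which are Ube3d, Pgm3 and Dkk3; most other circles are pale, with a median difference of 0.11 in size.

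Members that are copies of named genes were set beside those genes, because reads of near-identical copies may be divided between them by the counting. Rps20, the ribosomal protein gene of which Rps20l4 is a copy, had 15.2 ± 4.12 FPM in bHR against 14.7 ± 4.24 in bLR (SD, n = 6; log2 difference 0.05). Cbll1, a ubiquitin ligase, had a log2 difference of 0.05 and Dlg5, a membrane scaffold, of 0.06, while their copies Cbll1-ps1 and Dlg5l14 had 2.92 and -1.61. Ckap2, a gene of the mitotic spindle, stood at -0.44 (limma adjusted p = 0.807) beside -1.22 for Ckap2-ps3. None of these 4 named genes was called by limma (adjusted p of 0.807 or more), and all had an unadjusted p above 0.05.

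None of the measured related copies below lacked overlap between the lines. The 4 other measured Znf431-like genes had log2 differences of 0.22 to 0.35, all with the sign of Znf431l5 (0.56) and all with overlap between the lines. Spetex2l2 had a log2 difference of -0.16, against -1.39 for Spetex2l1. Other Dlg5-like genes had -0.45 (Dlg5l15), -0.64 (Dlg5l4) and -0.03 (Dlg5l6). Further Rps20 copies differed by -0.12 to 0.07, against 0.99 for Rps20l4. In bHR against bLR they stood at 174 and 177 FPM (Rps20-ps12), 88.4 and 96.4 (Rps20-ps10), 25.8 and 24.8 (Rps20l5) and 7.85 and 8.37 (Rps20-ps11). Rps20l4 itself stood at 0.335 and 0.168 FPM. These differences between copies were not tested, and the levels of the copies remain uncertain.

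Start windows were at hand for 9 of the 12 matched members, in 12 windows of 300 bases each (250 before and 50 after the start). TATAAA, searched on both strands, was present for 3 of the 9 members and in 14.2% of all 33469 windows. CCAAT was found for 5 of 9 (37.5% of all windows) and GGGCGG for 2 of 9 (33.1%). Counts of members and shares of windows are unlike measures, since a member with several windows has several chances of a match. No motif was shared by all members, and a match describes the letters alone.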

How the data were processed

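Values were available for 20909 genes in 18 libraries, 1 per rat, with 6 rats in each of 3 lines taken from the sample titles. Subread was the authors' aligner (genome Rnor_6.0) and featureCounts their counter (Ensembl 81), for paired-end reads of a stranded kit, per the labels. A minimum of 10 counts in 4 samples was set per the labels, which 5 members do not reach in the recovered reads. The log2 values were then made with limma's voom (R 3.2.2), per the submitters' processing notes. How strand and multi-mapping reads were set in counting was not stated, so reads of overlapping genes and of copies may not be separated. The deposited log2 values are on the FPM scale, with 0.5 reads added as an offset.

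Reads were recovered by taking the lowest value of each column as 0 reads: 100% of 376362 values came within 0.02 of a whole number. FPM levels are shown with the offset removed. Symbols, given in capitals in the table, are printed in the rat style where RefSeq (GRCr8) matched them (16491 genes), and no coordinates were carried between assemblies. The sequence windows are RefSeq's, on GRCr8.

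The deposited log2 values of all 18 rats were fitted by limma 3.58.1 under R 4.3.3: 3 line means, empirical Bayes with a trend, two-sided, Benjamini-Hochberg over all genes, adjusted p under 0.05. The contrasts were bIR against the mean of bHR and bLR, a common slope on open-arm time, and bHR against bLR. The last was read only for neighbouring genes, genes copied by a member and cell type markers, beside its share over all genes. The fits were tested on simulated data. The members, lists and tests were chosen with earlier results of these data known. Values were named for members with a mean log2 of at least 0 (up to 8 in each direction), those nearest the threshold, those with bIR rats in both line ranges, and neighbours without overlap; the remaining members, and genes beside LOC100912642 or copied by a member, were named after their values were seen. Similar genes were to be found by protein sequence, which was not used here; the genes named in the current symbols of copies took their place. Alternatives covered filters, scaling, the offset, weights, depth, libraries rich in Ttr, the size threshold, the number of neighbours and leaving out each rat.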

Additional observations from a re-analysis of the deposited data

Results flagged for a closer look

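Among the 126 groups of 6 rats (42 members in 3 lines), 11 held a rat whose gap to its nearest neighbour took up more of the group's range of log2 values than Dixon's 95% critical value allows; chance flags about 1 in 20 groups of unselected values. The rule used the bHR and bLR values, so the 7 flags in those 84 groups are a description only; the other 4 came from the 42 bIR groups. The share of the range is given for each.

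In bLR, LR_48 was low for LOC100910520 (1.46 FPM against 2.01 to 2.18 in the others, share 0.797) and high for LOC690414 (6.63 against 3.73 to 4.37 FPM, share 0.724). LR_8 was low for LOC102553220 (6 reads, share 0.757), high for LOC367516 (48 reads, share 0.632) and high for LOC102554267 (24 reads, share 0.695). LR_32, with 0 reads, was low for LOC102555008 (share 0.643).

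In bIR, IR_248 was high for LOC102552795 (2.89 against 1.22 to 1.68 FPM, share 0.632) and IR_261 low for LOC102546937 (2.75 against 3.56 to 4.05 FPM, share 0.667); both libraries had Ttr above 11, whose part in these values was not tested. IR_149 was low for LOC501467 (6 reads, share 0.740), and IR_158, the deepest library, had 0 reads of LOC687345 (share 0.722). In bHR, HR_34 was low for LOC102549366, with 7 reads (share 0.650).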

How the results depend on the processing

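The rule found 42 members, and 13 with a filter at a mean log2 of 0, 41 with median centring (40 of them shared), 41 with a prior of 2 reads (37 shared) and 30 with a difference of at least 1. Leaving out 1 bHR or bLR rat gave 52 to 77 members, since fewer rats overlap less easily. The count was 77 without HR_26 and 68 without HR_38, and in both cases all 42 were among them. Without HR_22, LR_16 or LR_48, 41 of the 42 were kept. Leaving out a bIR rat cannot change the set, since the rule does not use bIR values. The median bIR position was 0.433 to 0.491 without single rats and 0.437 to 0.497 under the other settings.

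Against the midpoint, 0 members were called under every setting run (smallest adjusted p 0.533, without IR_248), and so on the open-arm slope (0.793, without IR_248). Over all genes 1 gene was called against the midpoint in each setting except on linear FPM, where 0 were. Neighbours without overlap numbered 1 with the filter and 3 with 5 on each side. For the 13 members with at least 1 FPM, no line difference changed sign with median centring, a prior of 2 reads or the read total as a covariate; leaving out rats cannot change a sign, since the rule requires groups without overlap. With the read total as a covariate, a setting chosen after seeing the data, 40 of 42 differences stayed at 0.5 or more, LOC102553220 (0.45) and LOC100910520 (0.48) falling below. Below about 1 FPM, differences rest on few reads and depend on the offset. No paired analysis was possible because the lines share no replicate numbers.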
